A study of Mus musculus with 7 samples.

Results

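The regions described here are open chromatin sites at the ends of protein-coding genes that were detected in pancreatic epithelium at every time examined, before and after an episode of caerulein pancreatitis. Overlapping peaks of 4 ATAC-seq peak lists were merged into 223972 regions on chromosomes 1 to 19 and X. A merged region was kept when all 4 lists held a peak in it, when it was under 3000 bp wide and when its midpoint lay within 1 kb of either end of a protein-coding gene. This left 11640 constant gene-end regions, 5.20% of all merged regions. The members were therefore chosen by measured values, namely the presence, position and width of their peaks, and that they are shared by the 4 lists is not a finding.

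The epithelial cells were purified from digested pancreata of C57BL/6J wild-type mice. ATAC-seq reports accessible DNA as sites where the Tn5 transposase inserts sequencing adapters. The groups were untreated mice and mice examined 1, 7 and 28 days after caerulein, a cholecystokinin analogue that causes a transient acute pancreatitis. Each group was represented by 1 library, the sources used here give neither the number of mice behind a library nor their age, and no difference between groups has a replicate check. The series title speaks of an epithelial memory of resolved inflammation, and the comparison here asks how far the chromatin at gene ends held its level through the injury and its resolution. The series also lists 3 DCLK1-positive cell samples, which were not analysed here.

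Gene starts are where RNA polymerase II is loaded. Most promoters of broadly expressed genes lie in CpG islands, stretches rich in CG dinucleotides that are accessible in many cell types. Promoters of cell-type-restricted genes are more often poor in CG dinucleotides and open only where their activators are present. In the pancreas, acinar cells make digestive enzymes under factors such as PTF1A and the helix-loop-helix factor MIST1 (Bhlha15), and they lower that programme during pancreatitis.

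The annotation gave a strand and a start for 17274 of 21631 protein-coding genes, so members could be sorted by the kind of gene end they lay at. An annotated start lay within 1 kb of the midpoint of 8057 members (69.2%), here called start-side. Another 934 members (8.02%) lay at 3′ ends only and are called end-side. The remaining 2649 members fell in neither class and are called unresolved. Each lay at a gene without an annotated strand, or at the 5′ end of a gene span without an annotated start within 1 kb. Among resolved members 89.6% were start-side (95% exact binomial interval 89.0 to 90.2%, counting error only, as for all intervals of shares below). Of the start-side members 1469 (18.2%) had starts on both strands, the arrangement of a divergent promoter.

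The sequences of 3 of the most enriched start-side members, the first by mean rank for which the upstream bases touched no other gene or start in the annotation, are shown to set their letters against those of promoters that changed after caerulein. Each run is the 200 bases before the annotated start, 5′ to 3′ on the gene's strand, from RefSeq on GRCm38.p6. Capitals mark matches, on either strand, to a set of 11 short motifs, among them the GC box GGGCGG bound by SP and KLF factors, CCAAT bound by NF-Y, CCGGAAG bound by ETS factors and the E-box CACCTG, a form bound by the acinar PTF1 complex and by other helix-loop-helix factors. None of the motifs is contained in another, and a match is a description of letters only.
Samd4b (chr7:28436192-28436391, minus strand): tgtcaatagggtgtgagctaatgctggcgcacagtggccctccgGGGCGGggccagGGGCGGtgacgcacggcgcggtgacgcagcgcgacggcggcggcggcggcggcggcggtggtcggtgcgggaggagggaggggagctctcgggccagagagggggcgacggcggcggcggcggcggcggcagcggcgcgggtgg
Rab8a (chr8:72161000-72161199, plus strand): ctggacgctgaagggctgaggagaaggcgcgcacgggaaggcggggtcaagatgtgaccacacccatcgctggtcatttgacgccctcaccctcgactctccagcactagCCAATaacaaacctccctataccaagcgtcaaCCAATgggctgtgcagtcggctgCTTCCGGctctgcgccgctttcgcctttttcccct
Map3k3 (chr11:106084387-106084586, plus strand): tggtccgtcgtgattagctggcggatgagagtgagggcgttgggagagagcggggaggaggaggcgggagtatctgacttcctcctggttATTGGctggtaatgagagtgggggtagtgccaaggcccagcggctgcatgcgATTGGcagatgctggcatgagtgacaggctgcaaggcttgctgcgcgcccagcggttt

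Samd4b encodes an RNA-binding protein, Rab8a a GTPase of vesicle traffic and Map3k3 a signalling kinase. The Samd4b promoter held GC boxes at bases -156 and -144, counted to the start. The Rab8a promoter held CCAAT at -90 and -58 and an ETS match at -35, and the Map3k3 promoter CCAAT at -110 and -58. The ratio of observed to expected CG dinucleotides, computed over bases -250 to +50, was 1.06, 0.749 and 0.792, all above the 0.6 used here as the lower limit of a CpG-rich promoter.

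The next sequences belong to the start-side promoters with the lowest rank at day 1 relative to untreated for which the upstream bases touched no other gene. Cuzd1 encodes a membrane protein of zymogen granules, Aqp12 a water channel of acinar cells and Ankrd22 an ankyrin-repeat protein.
Cuzd1 (chr7:131322293-131322492, minus strand): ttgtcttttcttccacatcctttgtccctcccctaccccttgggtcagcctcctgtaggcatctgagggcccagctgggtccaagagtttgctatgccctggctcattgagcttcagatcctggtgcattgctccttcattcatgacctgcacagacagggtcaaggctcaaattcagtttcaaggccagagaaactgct
Aqp12 (chr1:93006134-93006333, plus strand): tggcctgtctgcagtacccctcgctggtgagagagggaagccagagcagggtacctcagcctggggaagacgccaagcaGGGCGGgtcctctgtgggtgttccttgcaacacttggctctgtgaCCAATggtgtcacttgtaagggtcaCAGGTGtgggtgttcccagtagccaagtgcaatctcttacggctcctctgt
Ankrd22 (chr19:34166042-34166241, minus strand): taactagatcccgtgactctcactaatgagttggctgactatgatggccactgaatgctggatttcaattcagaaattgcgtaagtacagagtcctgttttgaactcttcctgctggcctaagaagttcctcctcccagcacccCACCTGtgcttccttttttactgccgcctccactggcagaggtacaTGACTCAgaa

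The Cuzd1 promoter held none of the motifs in this window and 2 CG dinucleotides in the longer one. The E-box CACCTG stood at -51 in Aqp12, beside a CCAAT at -76 and a GC box at -121, and at -56 in Ankrd22, beside an AP-1 match (TGANTCA) at -10. Their observed to expected CG ratios were 0.0904, 0.270 and 0.240, below those of the 3 highly ranked promoters above. Over all 926 promoters inside members that ranked lower at day 1 the median ratio was 0.651, so these 3 lie low among them.

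Promoters that ranked higher at day 1 by the same choice were those of Bcat1, a branched-chain aminotransferase, Vsnl1, a calcium sensor, and Slc1a7, a glutamate transporter. The promoter of Clec2l, a lectin-like membrane protein, is shown for its higher rank at day 28.
Bcat1 (chr6:145076158-145076357, minus strand): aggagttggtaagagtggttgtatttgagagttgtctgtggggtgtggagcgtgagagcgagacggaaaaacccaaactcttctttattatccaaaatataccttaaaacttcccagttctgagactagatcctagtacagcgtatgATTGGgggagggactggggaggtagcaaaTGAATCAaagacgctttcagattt
Vsnl1 (chr12:11436579-11436778, minus strand): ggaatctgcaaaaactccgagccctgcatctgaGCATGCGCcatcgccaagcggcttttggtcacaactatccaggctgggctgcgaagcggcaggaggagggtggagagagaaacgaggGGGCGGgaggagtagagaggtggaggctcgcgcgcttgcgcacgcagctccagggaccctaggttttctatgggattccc
Slc1a7 (chr4:107968206-107968405, plus strand): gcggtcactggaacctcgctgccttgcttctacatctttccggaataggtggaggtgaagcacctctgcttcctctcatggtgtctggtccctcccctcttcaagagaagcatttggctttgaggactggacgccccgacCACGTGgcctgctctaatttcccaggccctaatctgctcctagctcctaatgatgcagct
Clec2l (chr6:38662869-38663068, plus strand): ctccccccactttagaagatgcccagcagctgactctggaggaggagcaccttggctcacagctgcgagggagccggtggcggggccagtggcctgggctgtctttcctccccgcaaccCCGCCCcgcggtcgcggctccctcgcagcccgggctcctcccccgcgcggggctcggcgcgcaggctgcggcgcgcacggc

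Bcat1 held an AP-1 match at -24 and a CCAAT at -53, Vsnl1 an NRF1 match (GCATGCGC) at -167 and a GC box at -80, Slc1a7 the E-box CACGTG at -60 and Clec2l a GC box at -81. None of these 4 windows held the E-box CACCTG. Their observed to expected CG ratios were 0.490, 0.705, 0.308 and 0.715.

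Constant gene-end regions were strongly enriched in every list. Fold enrichment is the authors' own value at a peak's summit, the pileup of fragments over background, and it is read within a list only. The median fold of the members was 29.7 in untreated epithelium, 40.7 on day 1, 43.0 on day 7 and 46.0 on day 28. Constant distal regions, which met the same presence and width limits but lay over 1 kb from every protein-coding gene end, had medians of 6.92, 13.6, 13.2 and 9.93. There were 45556 of them. The other 2706 constant regions, called broad here, were 3000 bp or wider at any distance from a gene. Their medians were higher than those of the members, at 43.9, 63.3, 57.8 and 67.4. The gene-end regions stood higher than the distal ones in 4 of 4 lists, by a mean difference of medians of 28.9 ± 5.57 (SD over lists, n = 4). The lists are different time points with different fold scales, so this SD mixes scales and is not a replicate error. The two-sided exact sign-flip permutation test over the lists gave p = 0.125, the smallest p that 4 lists allow.

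To compare lists, each region was given the percentile rank of its fold among all 59902 constant regions of the same list, so that each list ranks the same regions. The median rank of the gene-end regions was 81.6 in untreated epithelium, 73.4 on day 1, 80.9 on day 7 and 82.0 on day 28, against 41.2, 42.6, 41.2 and 41.4 for distal regions. Day 1 was thus the list in which gene ends stood lowest relative to the other constant regions, and at day 28 they stood where they had in untreated tissue. The gene-end median rank was above the distal one by a mean of 37.9 ± 4.75 points (SD over lists, n = 4). Members were also broader, with a median merged width of 1462 bp against 858 bp. Over the 4 lists 3081 members (26.5%) had a mean rank between 90 and 100 and 167 (1.43%) a mean rank below 10, so the set held weak regions too.

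The kind of gene end went with the level. Start-side members had median folds of 36.2, 48.5, 52.1 and 56.8 in untreated, day 1, day 7 and day 28 lists. End-side members had 7.25, 10.3, 12.1 and 9.65, close to the distal medians. Members with divergent starts were the most enriched of these classes, at 49.4, 64.0, 68.8 and 76.1. End-side members were narrow, with a median width of 755 bp against 1548 bp on the start side.

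**Figure D1:**
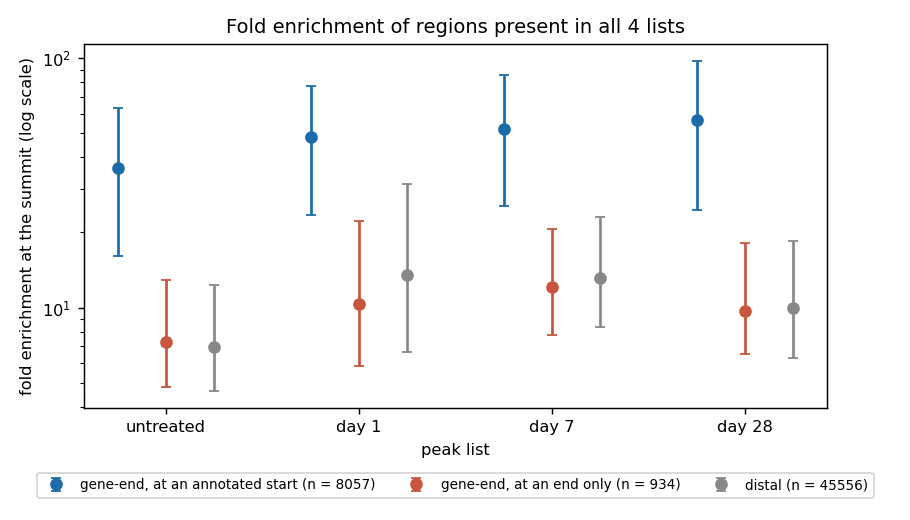
Median fold enrichment (points, log axis) and interquartile range (bars) in each peak list for 8057 start-side members, 934 end-side members and 45556 constant distal regions. Start-side members sit between 36.2 and 56.8, while end-side members and distal regions overlap between 6.92 and 13.6.

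Most summits of start-side members lay near an annotated start. These members were chosen by a start within 1 kb of the midpoint, so this closeness is in part fixed by the rule. The median distance of a start-side summit from its nearest annotated start was -28 bp (upstream) in untreated epithelium, -22 bp on day 1, -21 bp on day 7 and -23 bp on day 28. Between 53.6 and 56.0% of summits lay within 100 bp of a start in the 4 lists, and between 78.9 and 80.5% within 250 bp. The summit of a start-side member differed from its untreated position by a median of 23 bp on day 1, 21 bp on day 7 and 18 bp on day 28. The corresponding shifts of end-side members were 44, 35 and 34 bp. At day 1, when ranks differed most, 82.7% of start-side summits still lay within 100 bp of the untreated one.

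**Figure D2:**
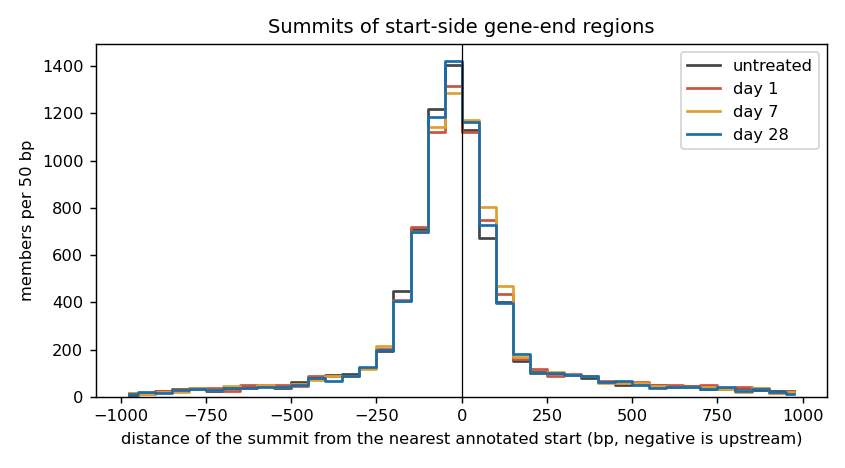
Number of start-side members per 50 bp of distance between the summit and the nearest annotated start (negative is upstream), 1 line per peak list. The 4 lines overlie each other, with medians between -28 and -21 bp.

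Ranks varied less over the 4 lists in members than in distal regions. The range of a member's rank over the 4 lists had a median of 11.1 points, against 27.6 points for distal regions. Start-side members had a median range of 9.06 points, members with divergent starts 5.73 and end-side members 24.3. A range under 20 points was found in 71.5% of the members and 31.2% of distal regions, and a range under 10 points in 46.0% and 8.95%. A range under 5 points was found in 3134 of 11640 members (26.9%), in 664 of 1469 divergent members (45.2%), in 22 of 934 end-side members (2.36%) and in 2.50% of distal regions. Broad constant regions were like the members, with a median range of 11.4 points and 28.0% under 5 points. A region near the top of the ranking can only move down, and its counting error in rank is small, so these ranges depend on the level.

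The highest mean ranks belonged to members at Mtmr4, Samd4b, Sf1, Rab8a, Dnpep, Map3k3, Mbd3, Sp1, Arrdc4 and Rps6ka5, with ranks of 99.9 or higher in all 4 lists. Mtmr4 encodes a phosphoinositide phosphatase, Sf1 a splicing factor, Dnpep an aminopeptidase, Mbd3 a subunit of the NuRD complex, Sp1 a factor that binds GC boxes, Arrdc4 an arrestin-related protein and Rps6ka5 a kinase. The Rab8a member (chr8:72160232-72162083) had a fold of 190 in untreated epithelium, 178 on day 1, 229 on day 7 and 284 on day 28. Behind these values stood summit pileups of 1155, 1129, 851 and 999 fragments, which gives exact Poisson 95% intervals of 1089 to 1224 in the untreated list and 938 to 1063 at day 28. The Sf1 member on chromosome 19 had folds of 195, 175, 227 and 292. Rab8a, Mtmr4, Sf1, Map3k3, Samd4b, Dnpep and Mbd3 were also among the 10 members with the smallest range of rank. Bnip3l, a mitophagy receptor, was also among them and held ranks between 97.6 and 97.7 in the 4 lists.

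A constant gene-end region was present at 11713 of 21631 protein-coding genes, 54.1%, and the share ran from 38.7% of the genes on chromosome X to 62.5% on chromosome 8. The lists of genes that follow were chosen with earlier results of these data known, and their counts are read beside that share only. Among genes of the translation machinery, 72 of 76 cytosolic ribosomal protein genes, 73 of 78 mitochondrial ribosomal protein genes, 20 of 20 aminoacyl-tRNA synthetase genes and 49 of 55 translation initiation factor genes had a member. The median ranks of the cytosolic ribosomal protein genes were 89.7, 86.5, 90.6 and 89.5 in the untreated, day 1, day 7 and day 28 lists. Rps21 held folds of 152, 152, 176 and 212 and Rpl37 of 142, 164, 168 and 207. Rpl17, Rpl41, Rpl7 and Rps2 had no member.

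Within these translation lists few members stood 20 points or more from their untreated rank. At day 1, 2 of 49 initiation factor members ranked higher and 3 lower, and 1 cytosolic and 1 mitochondrial ribosomal member ranked lower. Of all constant regions 23.0% ranked higher by as much and 20.5% lower. At day 7, 2 initiation factor members and 1 cytosolic ribosomal member ranked higher, beside 14.9%. At that time 1 member of each of these lists and of the mitochondrial list ranked lower, beside 15.6%. The median untreated ranks of the translation lists lay between 85.6 and 93.2, where a rise of 20 points is not possible, so only lower-ranked members could rise. Rpl18 was the lowest-going ribosomal member, with ranks of 73.2, 5.45, 29.9 and 67.3 in the 4 lists. Ribosomal protein genes have many processed copies in the genome, and reads shared with such copies cannot be separated here. Eif4ebp3, a binding protein of the cap factor eIF4E, ranked 71.5 in untreated epithelium, 7.56 on day 1, 37.5 on day 7 and 59.5 on day 28. Eif5, which acts in start codon selection, held folds of 165, 172, 213 and 268.

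Other shared machinery gave the same picture. A member was found at 57 of 61 genes of the respiratory chain and ATP synthase, 34 of 39 proteasome genes, 7 of 8 genes of the CCT chaperonin, 11 of 13 RNA polymerase II subunit genes, 26 of 27 core spliceosome genes, 27 of 28 Mediator genes and 17 of 19 nuclear pore genes. No member of the proteasome, CCT, RNA polymerase II, spliceosome, Mediator or nuclear pore lists differed by 20 points or more from untreated at any of the 3 later times. Their median untreated ranks lay between 86.0 and 94.1, where a rise of 20 points is not possible. Of all start-side members with an untreated rank from 80 to 100, 7.71% ranked lower at day 1. In the respiratory chain list 1 member ranked lower at day 1 and 1 higher at day 28, beside 20.5% and 4.96% of all constant regions. The proteasome genes included Psma8 and Psmb11, subunits restricted to germ cells and thymus, among the 5 without a member. The Tcp1 member, at a gene for a chaperonin subunit, held folds of 109, 128, 147 and 169.

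Genes of the general secretory machinery, which acinar cells use heavily, had high median ranks in all 4 lists. Of 44 genes of translocation into the endoplasmic reticulum and export from it, 42 had a member, with median ranks between 92.8 and 95.3 in the 4 lists. Pdia4, a disulfide isomerase, held folds of 159, 155, 197 and 233, and Srpr, the receptor of the signal recognition particle, 128, 124, 150 and 174. The export genes Sec16b and Sec24d went up in rank at day 1, Sec16b from 47.1 to 79.1 and Sec24d from 6.89 to 35.7, and Srp72 went down from 83.6 to 62.6. Among 16 genes of the unfolded protein response 9 had a member and 5 more, among them Atf4 and Ddit3, had a region in all lists that was too broad to count. The 9 members were Hspa5, Hsp90b1, Eif2ak3, Dnajb9, Manf, Sel1l, Sdf2l1, Xbp1 and Atf6. Their median ranks were 99.8, 99.2, 99.5 and 99.8, and none differed by 20 points at any time. Ranks this high cannot rise by 20 points, and few strong start-side members of any kind ranked lower by as much, as given above. Hspa5, the chaperone BiP, held folds of 172, 173, 220 and 248, and Xbp1, a factor of the response, 64.8, 98.3, 99.1 and 109.

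Digestive enzyme genes were the opposite case. Only 7 of 28 had a member, while 15 had a region in 1 to 3 of the lists. All 7 members were lower by 20 points or more at day 1 and at day 7 and 1 of 7 at day 28, beside 20.5%, 15.6% and 5.07% of all constant regions, and their median ranks were 81.9 in untreated epithelium, 5.45 on day 1, 43.1 on day 7 and 78.2 on day 28. Pnliprp2, a pancreatic lipase-related protein, had folds of 53.9, 5.67, 19.9 and 82.6. Prss2, a trypsinogen, had ranks of 83.6, 2.38, 43.1 and 78.2, and Sycn, the zymogen granule protein syncollin, ranks of 81.9, 5.45, 33.4 and 73.4. Clps (colipase), Try5 (a trypsinogen) and Pla2g1b (pancreatic phospholipase) were the others outside chromosome 18. Trypsinogen genes form a family of similar copies, so reads at Prss2 and Try5 may be shared.

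Acinar transcription factors had members at 10 of 14 genes. Of the 10, 9 were lower by 20 points or more on day 1, 7 on day 7 and 0 on day 28. The shares over all constant regions were 20.5%, 15.6% and 5.07%. Ptf1a, the master regulator of the acinar programme, had folds of 46.0 in untreated epithelium, 7.41 on day 1, 18.5 on day 7 and 79.2 on day 28, with ranks of 88.7, 24.6, 55.5 and 90.5. Bhlha15 had ranks of 91.4, 25.2, 59.2 and 89.4, and Hnf4a, a nuclear receptor, of 84.4, 11.4, 62.1 and 82.6. Nr0b2, Foxa2, Foxa3, Gata4 and Rbpjl were among the other members that stood lower at day 1. Prox1, a homeobox factor, did not pass the limit at any time, with ranks of 59.4, 64.5, 71.8 and 66.3. Nr5a2, Gata6, Onecut1 and Mecom had no member. In such bulk preparations a smaller share of acinar cells and less accessibility per acinar cell cannot be told apart.

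Members at duct and metaplasia genes, 11 of 20, were mixed. At day 1, 7 ranked lower by 20 points or more and 1 ranked higher, beside 20.5% and 23.0% of all constant regions. Epcam, the adhesion molecule used to mark epithelium, ranked 93.9 in untreated epithelium, 30.7 on day 1, 76.4 on day 7 and 89.5 on day 28. Krt18, Krt19 and Krt7, keratins of simple epithelium and ducts, ranked 25.8, 30.7 and 1.46 at day 1 after 84.2, 77.5 and 67.3 in untreated epithelium. Tff2, Clu and Cldn4 were lower as well. Sox9, the ductal progenitor factor, held ranks of 91.1, 90.1, 88.6 and 91.0, and Anxa1, an annexin induced in injured epithelium, went from 47.1 to 76.2 at day 1 and 77.5 at day 7.

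Immediate-early and AP-1 genes were seldom members, at 5 of 21 genes (Fosl1, Klf5, Klf6, Maff and Mafk). A further 7, including Fos, Junb, Egr1 and Myc, had a region in all lists that was 3000 bp wide or more. Of 28 inflammatory and NF-kB genes 17 had a member, and 5 of the 17 ranked higher by 20 points or more at day 1 and 1 lower. The number of higher ranks was near the 23.0% of all constant regions and above the 5.54% of all members. Lower ranks were found in 20.5% of all constant regions and 14.2% of all members. The 5 were Ccl2, Ccl7, Cxcl5, Il33 and Il6, all secreted signals, and the lower member was at Lcn2, an acute-phase protein. Il6 had folds of 14.2 in untreated epithelium, 66.8 on day 1, 52.9 on day 7 and 25.8 on day 28, and ranks of 66.7, 87.6, 85.4 and 71.2. The NF-kB subunit genes Rela, Relb, Rel and Nfkb1 and Stat3 did not pass the limit, and Stat3 held ranks between 99.8 and 99.9. Of 26 cell cycle genes 24 had a member, and 1 ranked higher at day 1, at E2f1, a factor of S-phase entry, with ranks of 9.14 and 34.8.

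Markers of other cells that a purified fraction could hold moved with the time points to different degrees. Fibroblast and stellate cell genes had a member at 10 of 16, with median ranks of 41.9, 66.2, 61.3 and 47.1 in the 4 lists, and 5 members ranked higher at day 1 (Acta2, Col1a2, Col3a1, Fap and Prrx1) and 0 lower, beside 23.0% and 20.5% of all constant regions. Endothelial genes had a member at 8 of 14, with median ranks of 44.3, 45.0, 38.0 and 33.1. At each of days 1, 7 and 28, 2 of the 8 ranked lower and 0 higher. Of all constant regions 20.5%, 15.6% and 5.07% ranked lower at these times. Pecam1, Cdh5 and Vwf had a region in 1 to 3 lists only. Leukocyte genes had a member at 4 of 16, with median ranks of 63.8, 62.7, 67.0 and 65.7 and none past the limit, and no region was found at Ptprc, Cd3e, Itgam or Adgre1. Endocrine genes had 7 of 16, with median ranks of 25.5, 51.7, 51.1 and 48.5. The median range of rank of these 7 was 9.19 points, so the shift of the list median was not that of most members. At each of days 1, 7 and 28, 1 of the 7 ranked higher and 0 lower. Of all constant regions 23.0%, 14.9% and 4.96% ranked higher at these times. Tuft cell genes had 5 of 12. Of these, 2 ranked higher and 0 lower at day 1, and 1 higher and 1 lower at day 7. Dclk1 ranked higher at day 1, with folds of 21.6, 113, 86.5 and 35.8. Erythroid genes had 2 of 9, of which 1 ranked lower at day 1, and no region at the globin genes. The part that a changing share of such cells has in the ranks at day 1 and day 7 was not tested.

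Receptor and hair protein families of other tissues had few members. Members were found at 5 of 1106 olfactory receptor genes (0.452%, interval 0.147 to 1.05%), 2 of 353 vomeronasal receptor genes and 0 of 56 keratin-associated protein genes, which allows a share of up to 6.38%. Skeletal muscle genes had 5 of 15, among them Des, which is also a marker of stellate cells. Zinc finger genes of the Zfp series had 282 of 394, a larger share than over all genes, with 35 members lower and 4 higher at day 1, near or below the 14.2% and 5.54% of all members. Hox genes, the positional identity factors, had 23 of 39 with median ranks of 35.0, 40.5, 33.4 and 26.4, and at day 1 8 of the 23 ranked higher and 1 lower, beside 23.0% and 20.5% of all constant regions. Hoxc10 went from 13.6 to 64.2 and Hoxb9 from 30.6 to 68.0. At day 7 5 Hox members ranked higher and 2 lower, beside 14.9% and 15.6% of all constant regions. At day 28 1 ranked higher and 4 lower, beside 4.96% and 5.07%.

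**Figure D3:**
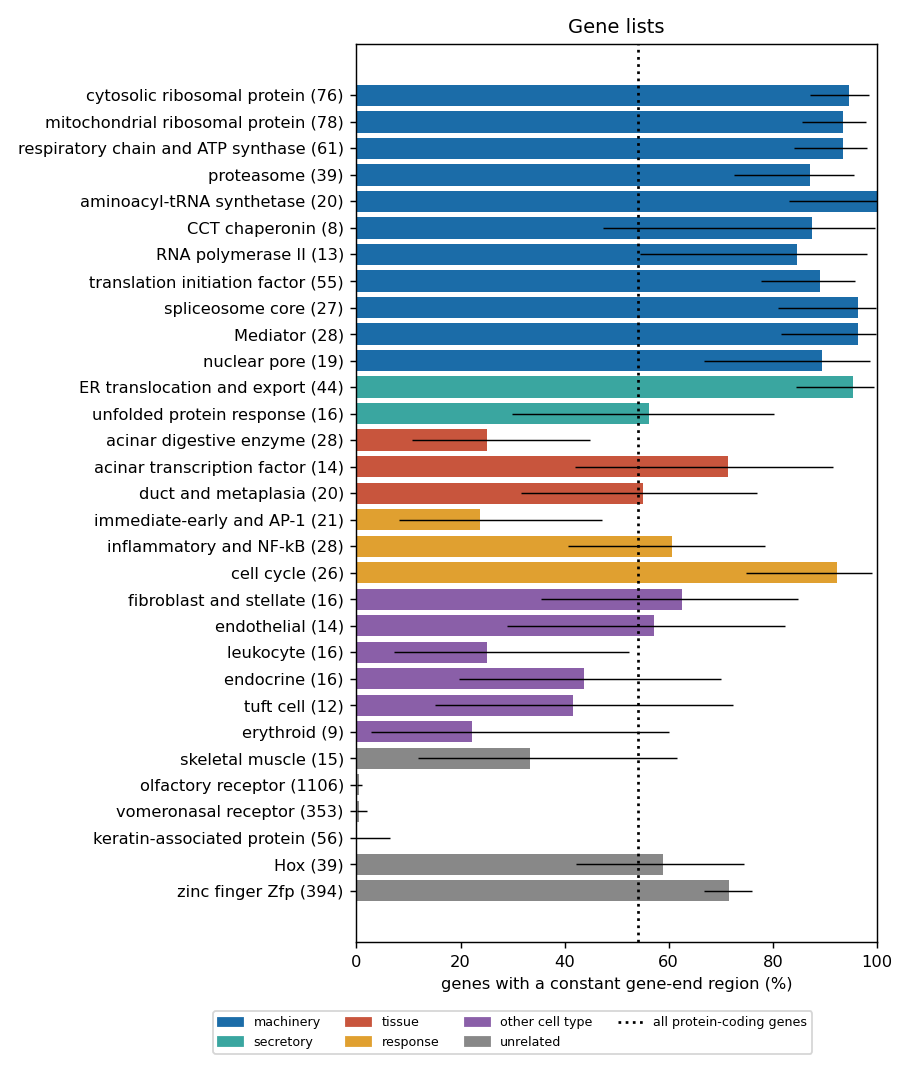
Percentage of the genes of each list that had a constant gene-end region (bars, coloured by the kind of list, number of genes in brackets), with exact binomial 95% intervals (lines) and the share over all protein-coding genes, 54.1% (dotted). Shared machinery lists lie between 84.6 and 100%, digestive enzymes at 25.0% and olfactory receptors at 0.452%.

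A move was counted when a member's rank differed from its untreated rank by 20 points or more. At day 1, 645 members (5.54%) ranked higher, beside 23.0% of all constant regions, and 1655 members (14.2%) ranked lower, beside 20.5%. At day 7, 491 members (4.22%) ranked higher, beside 14.9%, and 847 (7.28%) lower, beside 15.6%. At day 28, 213 members (1.83%) ranked higher, beside 4.96%, and 269 (2.31%) lower, beside 5.07%. Moves were fewer among gene-end regions than among all constant regions at each time and in each direction. Of the broad constant regions 10.7% ranked higher and 14.8% lower at day 1. These shares were 5.65% and 7.21% at day 7, and 0.407% and 0.591% at day 28.

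Depth limits how far these counts can be read. For a weak region the counting error of the pileup alone can span 20 points, and the libraries of days 7 and 28 were the shallower ones, with background pileups of 2.72 and 2.52 against 5.07 in the untreated and 5.35 in the day 1 library. When the rank intervals given by the exact Poisson bounds of the pileups also had to lie apart, 518 members higher and 1534 lower were left at day 1, 291 and 637 at day 7, and 43 and 95 at day 28. The day 28 counts are then 0.369% and 0.816% of the members, beside 1.00% and 1.43% of all constant regions, so most day 28 moves are within the counting error.

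Ranks also measure a member against the other regions, and the choice of those regions matters. Ranked among the 11640 members alone, 894 ranked higher and 924 lower on day 1, 441 and 500 on day 7 and 69 and 16 on day 28. Ranking the members among themselves holds their mean rank at 1 value in every list, so a near-even split is largely built into that scale. At day 28 the balance of higher against lower ranks reversed with the scale. Of the distal regions 28.2% ranked higher at day 1 among all constant regions. With each fold divided by the median fold of the constant regions of its list, 3496 members were lower and 394 higher by 2 times or more at day 1. Most constant regions are distal, and their median fold was 6.92 in untreated epithelium and 13.6 on day 1, beside 29.7 and 40.7 for the members. These 2 counts therefore depend on the divisor, and the same counts over all constant regions were not made.

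**Figure D4:**
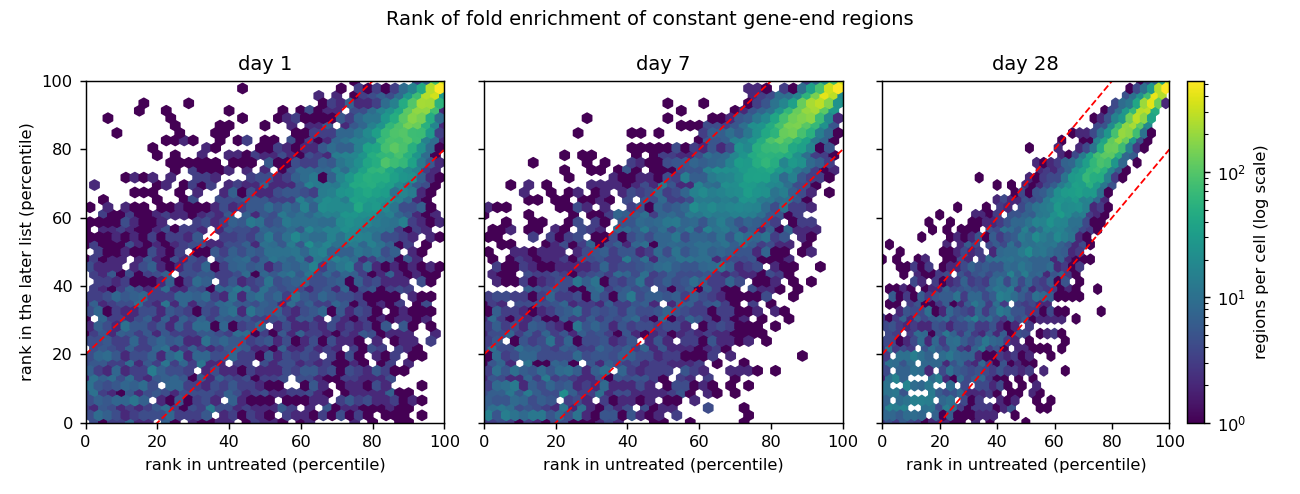
Percentile rank of each of the 11640 members in untreated epithelium (x axis) against its rank at day 1, day 7 or day 28 (y axis), as the number of members per hexagon on a log colour scale, with dashed lines 20 points above and below equal rank. Of the members, 1655 lie below the lower line on day 1, 847 on day 7 and 269 on day 28.

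Because a strong region cannot rise by 20 points, members were also compared within bands of untreated rank. In the band from 80 to 100, 569 of 6127 members (9.29%) ranked lower at day 1, 136 (2.22%) at day 7 and 0 at day 28, which allows a share of up to 0.0602%. In the same band at day 1 the share was 7.71% of 4918 start-side members, 46.8% of 79 end-side members (interval 35.5 to 58.4%) and 45.4% of 4014 distal regions. In these libraries a lower rank was thus counted in a smaller share of start-side members than of distal regions of this band. The end-side share had the distal share inside its interval. Ranks were not matched within the band. The upper quartile of all untreated ranks was 93.2 for start-side members and 62.9 for distal regions, so level may still differ inside it. In the band from 0 to 20, 37.7% of 848 members ranked higher at day 1, beside 52.1% of distal regions, and 15.7% beside 16.4% at day 28.

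Over all ranks, moves at day 1 were counted more often among end-side than among start-side members. Of start-side members 286 (3.55%) ranked higher and 943 (11.7%) lower at day 1. Of end-side members 145 (15.5%) ranked higher and 249 (26.7%) lower. Of members with divergent starts 41 (2.79%) ranked higher and 102 (6.94%) lower, against 245 (3.72%) and 841 (12.8%) of those with starts on 1 strand. These shares mix members of different level. In the band of untreated rank from 0 to 20, 37.1% of start-side and 35.5% of end-side members ranked higher at day 1, and in the band from 20 to 40 the shares were 19.5% and 16.3%. In the band from 60 to 80, 21.6% of start-side and 44.6% of end-side members ranked lower.

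Members that ranked lower at day 1 regained their rank by day 28. The median rank of these 1655 members was 73.8 in untreated epithelium, 33.3 on day 1, 54.9 on day 7 and 72.6 on day 28, and 1343 of them (81.1%) were within 10 points of their untreated rank at day 28. Since the untreated rank took part in choosing them, this is a description. The 645 members that ranked higher at day 1 had median ranks of 21.9, 56.8, 47.0 and 28.2, and 358 of them (55.5%) were within 10 points of untreated at day 28. The step at day 7 lay between those of day 1 and day 28 in both directions.

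The lowest ranks relative to untreated at day 1 were found at Cuzd1, Tff2, Gsap, Nucb1, Rhobtb1, Aqp12, Atp6v0e, Cldn8, Smim6 and Ankrd22. The Cuzd1 promoter (chr7:131321522-131322778) had a fold of 63.1 in untreated epithelium, 3.31 on day 1, 19.1 on day 7 and 82.9 on day 28. Its summit pileups were 382 (344.6 to 422), 20 (12.2 to 30.9), 70 (54.6 to 88.4) and 291 (259 to 326) fragments, so the day 1 interval lay far below the rest. Tff2, a secreted trefoil peptide, had folds of 54.4, 2.99, 19.1 and 83.7, and Aqp12 had 65.6, 4.10, 18.8 and 72.1. Gsap, Nucb1, which encodes a calcium-binding protein of the Golgi, and Atp6v0e, a subunit of the vacuolar proton pump, were end-side members. Nucb1 ranked 87.8 in untreated epithelium, 1.46 on day 1, 40.3 on day 7 and 84.5 on day 28.

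The highest ranks relative to untreated at day 1 belonged to Glrp1, Smyd4, Alkbh3, S1pr2, Ptprn, Gm51791, Wt1, Pmvk and Gm536, and the tenth lay on chromosome 18. Smyd4, S1pr2, Gm51791 and Pmvk were end-side members, and Ptprn, a protein of dense-core granules, and Alkbh3, a nucleic acid demethylase, were start-side. The S1pr2 member, at the 3′ end of a sphingosine phosphate receptor gene, had folds of 3.79 in untreated epithelium, 58.5 on day 1, 16.4 on day 7 and 5.96 on day 28. Wt1, a factor of mesothelial and some stromal cells, had folds of 4.94, 72.0, 32.2 and 7.10. Pmvk, an enzyme of the mevalonate pathway, ranked 29.0, 94.6, 88.8 and 46.6 and was also among the highest at day 7. The Bcat1 promoter shown above had folds of 5.11, 56.6, 26.1 and 5.39, and that of Slc1a7 folds of 5.27, 57.7, 22.3 and 7.38.

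At day 7 the lowest ranks relative to untreated were at Ankrd9, Abhd16b, Gsap, Samm50, Fancc, Wdr46, Iqub, Acadl, Lrrc75a and Enc1. Of these, 5 (Ankrd9, Abhd16b, Gsap, Fancc and Wdr46) were end-side members. Acadl, an acyl-CoA dehydrogenase of mitochondria, had folds of 21.8, 4.10, 7.25 and 22.1. The highest were at Chrdl2, Glrp1, Fsip1, Vsnl1, 2300002M23Rik, Pmvk, Pygo1, Ptx3, Slk and Serpina3i. Ptx3, a pentraxin of the inflammatory response, had folds of 3.46, 30.4, 22.3 and 8.52, and Pygo1, a cofactor of Wnt signalling, folds of 5.27, 26.5, 53.2 and 18.2. Pygo1 was the member of this group with the highest rank left at day 28, at 62.4 after 27.3 in untreated epithelium.

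At day 28 the highest ranks relative to untreated were at Clec2l, Marchf9, Ccdc184, Wdr91, Chrnb2, Sdc3, Alk, Ttll9 and Wnk1, with the tenth on chromosome 18. The Clec2l promoter had folds of 3.30 in untreated epithelium, 18.1 on day 1, 18.8 on day 7 and 12.8 on day 28. Its rank interval was 0.00100 to 24.6 in untreated epithelium and 38.2 to 60.8 at day 28, so the intervals lay apart. Sdc3, a syndecan, ranked 19.9, 40.2, 66.7 and 60.5, with intervals of 0.779 to 39.5 and 51.5 to 67.4 in the untreated and day 28 lists. The interval of Wnk1, a kinase of ion transport, reached 24.6 in the untreated list and began at 23.6 at day 28, so these intervals overlapped, with folds of 3.30 and 9.65 in the 2 lists. The lowest were at Tldc2, 4931408C20Rik, Tbc1d10a, Ctla2b, Kcna5, Sdcbp2, Vasp, Rhbdd2, Adamtsl1 and Pex6. Adamtsl1, which encodes a secreted matrix protein, had folds of 21.6, 8.51, 26.6 and 8.23, and Vasp, a regulator of actin, folds of 9.39, 12.9, 7.79 and 4.54.

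**Figure D5:**
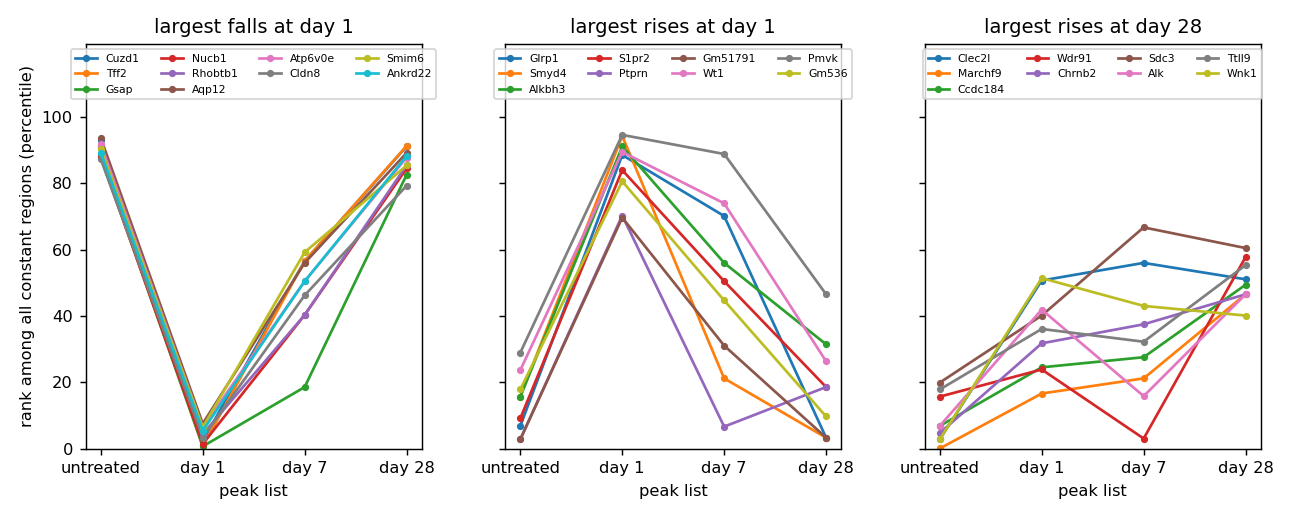
Percentile rank in the 4 peak lists of the members with the largest lower rank at day 1, the largest higher rank at day 1 and the largest higher rank at day 28, 1 line per gene and without members on chromosome 18. The members lowest at day 1 return to between 79.3 and 91.3 at day 28, and those highest at day 28 lie between 40.2 and 60.5 there.

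Promoter composition went with presence and with the moves. Of 21045 annotated promoters 11518 belonged to genes with a member, and 67.2% of these were CpG-rich, with an observed to expected CG ratio of 0.6 or more. Of the 9282 promoters whose start lay inside a member 76.4% were CpG-rich (interval 75.5 to 77.3%). The share was 48.1% over all promoters, 20.8% where the start lay in a region found in 1 to 3 lists and 6.75% where no list had a peak. Among promoters inside members, the 7091 CpG-rich ones ranked lower at day 1 in 7.31% and the 2191 others in 18.6%. At day 7 these shares were 1.85% and 10.0%, and the median mean rank was 88.1 against 72.1, so level differed between them as well.

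The motif letters followed composition in part. The GC box GGGCGG was found in 61.9% of promoters of genes with a member, against 46.7% of all promoters of the same length, the ETS letters in 16.9% against 11.7%, NRF1 in 5.12% against 3.54% and TATAAA in 7.18% against 12.7%. CCAAT was found in 37.8% against 38.5%. Of the 3508 promoters whose start lay in a constant region that was not a member, 65.9% held the GC box. The ETS letters were in 11.3% of them. In the 2321 promoters inside the highest-ranked members CCAAT reached 56.4% (interval 54.3 to 58.4%), against 34.3% in the 2320 promoters next in rank. The ETS letters were found in 21.8% and 25.0% of the same groups.

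The E-box CACCTG was more frequent in promoters that ranked lower at day 1. It was found in 384 of the 926 promoters inside members that ranked lower at day 1, 41.5% (interval 38.3 to 44.7%), and in 38.2% of the 351 that ranked lower at day 7. The share was 18.2% of all promoters inside members, 19.9% of all promoters and 15.9% of those that ranked higher at day 1. The promoters lower at day 1 had a median GC content of 61.0%, close to the 61.7% of all promoters inside members, and a median CG ratio of 0.651 against 0.783. In members with a range of rank under 5 points the share was 11.8%. The CACCTG share also went with level, from 24.6% in the lowest of 4 equal groups by mean rank through 20.3% and 14.4% to 13.4% in the highest. Other letters were less frequent in the promoters lower at day 1 than in all promoters inside members, with ETS at 10.0% against 19.8%, YY1 at 1.62% against 4.74% and CCAAT at 29.9% against 38.6%. No test compared the motifs with each other. The AP-1 letters were found in 8.33% of promoters that ranked higher at day 1 (interval 5.30 to 12.3%). The 4.58% of all promoters inside members lay below that interval. It held the 7.04% of all promoters and the 6.54% of the lowest of the 4 groups by mean rank. In promoters that ranked lower at day 28 the AP-1 share was 15.8% (interval 9.33 to 24.4%).

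Regions at the limits of the definition show what it keeps and leaves out. Just inside the width limit, at 2999 bp, lay the members at Tada2b, with folds of 110, 111, 145 and 180, and Tmtc2, with 59.3, 58.0, 58.6 and 67.8. Just outside, at 3000 bp, lay the regions at Grin1, with folds of 11.4, 9.93, 17.5 and 16.5, and Rab24, with 27.4, 42.4, 44.6 and 44.6. At 1000 bp from a gene end lay Amotl2 and 4930523C07Rik, with untreated folds of 30.6 and 14.3. Just beyond that distance, and so left out, lay Pwwp2a and Morn3, with untreated folds of 120 and 3.79.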

How the data were processed

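Peak lists of 4 ATAC-seq libraries of purified mouse pancreatic epithelium were analysed, 1 per group. Sample titles gave the groups. Build GRCm38 (mm10) and the tools MACS2 2.1.0.20150731, Bowtie2 2.2.6, cutadapt, SAMtools and deepTools are named in the submitters' processing notes. For their options, read filters and any shift to the transposase cut site nothing is given in the sources used here. In the deposited lists each peak has the authors' fold enrichment, a ratio of the summit's pileup to its background, with −log10 p and −log10 q values by the authors, the authors' score (10 times the −log10 q in 100% of rows) and the deposited offset of the summit. Each list came from a single library.

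From fold and −log10 p a single background per list was recovered that made 100% of pileups whole within 0.05 and matched 100% of p-values. Its value follows depth. Exact Poisson and Clopper-Pearson 95% intervals cover counting error only. Peaks overlapping by at least 1 bp were merged. Where a region held several peaks of a list, the highest fold was used. Gene spans, starts and promoter sequences (250 bases before to 50 after each start) came from RefSeq tables of GRCm38.p6, which hold starts for 17274 of 21631 protein-coding genes. Motifs were searched on both strands over all 300 bases.

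With 1 library per group no test compares groups. The members, the 31 gene lists and the 11 motifs were chosen with earlier results of these data known. Named members were the 10 with the highest mean rank, the 10 with the smallest range, up to 10 per direction and time with the largest moves, per list up to 4 of the highest mean rank and those that moved, and those next to each limit. Examples beyond this rule were chosen after their values were seen. Members on chromosome 18 were counted and not named. Alternatives were other merging, distance, width and threshold settings, lists not required, other rank limits and, chosen after seeing the data, rank intervals apart. Scripts used Python 3.11.15, pandas 2.3.3 and SciPy 1.17.1 and were tested on simulated data.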

Additional observations from a re-analysis of the deposited data

How the results depend on the processing

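No paired analysis was possible because each group had 1 library and the labels pair none of them. Leaving out a replicate was not possible for the same reason. Across 135 alternative values, 88 stayed within the limits set for them and 47 moved. Nearly all are counts or shares, which have no sign to change, but the balance of higher against lower ranks at day 28 did reverse among the members alone, as given below. The count of 11640 members stayed between 8805 and 14756. The share of constant regions at gene ends, 20.4%, became 19.9996% with peaks up to 100 bp apart merged, 15.4% and 25.8% with a limit of 500 and 2000 bp, 21.1% with no limit on width and 21.9% with a −log10 q of at least 5. It became 18.3, 18.2, 19.9993 and 19.2% when the untreated, day 1, day 7 or day 28 list was not required. With limits of 10 and 30 points, members that ranked higher numbered 1265 and 305 on day 1, 1314 and 186 on day 7 and 736 and 39 on day 28. Members that ranked lower numbered 3462 and 903, 1813 and 371, and 813 and 84. Ranked among the members alone, lower ranks numbered 924, 500 and 16 at days 1, 7 and 28, and higher ranks 69 at day 28. With fold over the list median changed by 2 times or more, higher members numbered 394, 217 and 67 and lower members 3496, 1323 and 126. Those counts depend on the median used as divisor and were not made over all constant regions. With rank intervals apart, an alternative chosen after seeing the data, 291 were higher and 637 lower at day 7 and 43 and 95 at day 28. The share of higher ranks among all moves at day 1 was 28.0% as reported, 49.2% among the members alone and 10.1% by fold over the median. At day 7 it was 36.7, 46.9 and 14.1%, and at day 28 44.2, 81.2 and 34.7%. Genes with a member in the AP-1 list numbered 2 and 8 at 500 and 2000 bp, and at 500 bp the erythroid list had 1 and the skeletal muscle list 3. Counting promoters whose start lay inside a member gave NRF1 5.94%, ETS 19.8%, the GC box 67.5%, YY1 4.74%, CRE 3.58%, the E-box CACGTG 10.6%, TATAAA 6.19%, AP-1 4.58% and CACCTG 18.2%. The cause of these changes was not tested.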
